A study of Mus musculus with 4 samples.

Results

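The genes described here encode ribosome biogenesis factors, the subunits of the RNA exosome and the RNA helicases of the DDX and DHX families. They were chosen by name: every autosomal feature of the deposited table whose symbol belongs to the Ddx, Dhx, Nop, Nol, Utp, Polr1, Rrp, Exosc and Gnl series, or is Rrs1, Nip7, Bop1, Fbl, Ncl, Imp3 or Imp4. The rule found 86 of the table's 9615 genes, of which 9398 are autosomal. Another 3 genes with such names lie on X or Y and were left out. No measured value entered the rule. RefSeq (GRCm38.p6) holds 112 autosomal protein-coding genes with names of this kind. All 86 members matched one of them, 3 others have a row under an older name outside the rule, and the remaining 23 were not analysed here.

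Acetylation of histone H3 at its lysine 9 (H3K9ac), which marks promoters in use, was measured by chromatin immunoprecipitation and sequencing in leukaemic mouse bone marrow after red cell lysis. All mice carried Gfi1b(fl/fl) and a NUP98/HOXD13 transgene, Nup98(tg), a fusion gene of human leukaemia. The group called WT was MxCre(wt), without the recombinase, and the group called tg was MxCre(tg). The WT animals are thus neither free of the leukaemia gene nor wild type at Gfi1b. Mx-Cre is driven by an interferon-inducible promoter and acts in many cell types, so that marrow cells other than the leukaemic ones can also recombine. The labels state no induction, age, sex or number of animals per library. Each genotype had 1 H3K9ac library and 1 IgG library, and no column of the table matched an IgG library, so the background was not analysed here.

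Ribosomes are built in the nucleolus. RNA polymerase I transcribes the ribosomal RNA precursor, small nucleolar ribonucleoproteins (snoRNPs) modify it, and the small subunit processome and the large subunit assembly factors cleave, fold and package it. The RNA exosome trims RNA from its 3′ end. DDX and DHX helicases remodel RNA with proteins at each of these steps, and others of the family act in splicing, mRNA export, translation, decay and the sensing of viral RNA. Growing and leukaemic blood cells make ribosomes at a high rate.

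Read numbers per gene were low. The scaled values correspond to totals of 309649 reads for WT and 163712 for tg, so a gene at an equal scaled level had 1.89 times more reads in WT. Reads summed over the 9493 genes with recovered reads were 316216 and 163995, where genes with shared values each count. The totals are thus near the reads within the probes, and they do not give the sequencing depth of the libraries. The members held a median of 21 reads in WT (3 to 187) and 14 in tg (1 to 85), and 76 of the 86 had a single probe. A probe is an interval in which the authors counted reads, and the sources used here do not give its position or width. A count of 0 would allow up to 9.69 scaled reads in WT and 18.3 in tg. Gfi1b held 12 WT reads and 108 tg reads, which does not check the deletion because the probes are not placed. Y-linked reads were present in WT and nearly absent from tg (Ddx3y had 22 and 1). Marker genes of other lineages differed strongly between the libraries. Of 28 listed erythroid genes, 17 had a probe, and 16 of those passed 2-fold in favour of tg. The summed level of the 16 with recovered reads was 591 scaled reads in WT and 3567 in tg, with Alas2, Epor and Rhag at 0 reads in WT. All 5 of the 22 listed neutrophil genes that had a probe were 2-fold lower in tg (summed 313 and 55.0 scaled reads). Of 8 monocyte and macrophage genes with a probe, 4 were 2-fold lower and 1 was higher (2493 and 538). Few genes of the dendritic (3), B cell (3), T and NK cell (3) and megakaryocyte (4) lists had a probe. Their summed levels in WT and tg were 969 and 599, 158 and 257, 61.4 and 109.9, and 371 and 226 scaled reads. The part of these differences in the results below was not tested. In a mixture of cells, fewer cells of a type and less acetylation per cell cannot be told apart.

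RefSeq gives a promoter window, 250 bases before to 50 after the transcription start, for 72 of the members. The windows below are those of 8 members with differences of at least 2-fold between the libraries: Nop56, Utp3, Dhx29 and Dhx16 were higher in tg, Rrp15, Ddx24, Ddx60 and Ddx4 were lower. They are shown 5′ to 3′ on the strand of the gene. Capitals mark matches on either strand to 5 short motifs: the E-box CACGTG, the GATA motif AGATAA, the ETS motif CCGGAAG, the TATA box TATAAA and the interferon response element core, which is a pair of GAAA runs with any 2 bases between them.
Nop56: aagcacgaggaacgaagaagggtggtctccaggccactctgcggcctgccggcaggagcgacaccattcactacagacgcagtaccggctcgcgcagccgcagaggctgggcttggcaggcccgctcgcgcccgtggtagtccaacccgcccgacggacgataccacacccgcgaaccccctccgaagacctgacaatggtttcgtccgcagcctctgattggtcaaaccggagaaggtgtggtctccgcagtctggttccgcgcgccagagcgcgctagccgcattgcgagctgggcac
Utp3: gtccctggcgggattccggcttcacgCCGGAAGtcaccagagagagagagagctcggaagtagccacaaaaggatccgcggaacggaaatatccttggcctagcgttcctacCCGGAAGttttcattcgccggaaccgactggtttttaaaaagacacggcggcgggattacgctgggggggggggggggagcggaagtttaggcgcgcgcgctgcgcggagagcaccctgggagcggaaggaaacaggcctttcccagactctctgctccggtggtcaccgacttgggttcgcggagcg
Dhx29: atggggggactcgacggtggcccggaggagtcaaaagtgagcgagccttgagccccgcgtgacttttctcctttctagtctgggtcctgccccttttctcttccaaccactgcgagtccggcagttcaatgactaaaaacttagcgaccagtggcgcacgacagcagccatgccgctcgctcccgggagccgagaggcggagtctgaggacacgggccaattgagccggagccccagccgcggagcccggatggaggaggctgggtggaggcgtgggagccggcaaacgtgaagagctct
Dhx16: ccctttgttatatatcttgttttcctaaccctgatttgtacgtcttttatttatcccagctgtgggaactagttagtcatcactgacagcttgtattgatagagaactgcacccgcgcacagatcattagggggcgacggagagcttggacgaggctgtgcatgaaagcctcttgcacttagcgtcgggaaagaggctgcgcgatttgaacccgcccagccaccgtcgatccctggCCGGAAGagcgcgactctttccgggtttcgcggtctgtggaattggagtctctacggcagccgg
Rrp15: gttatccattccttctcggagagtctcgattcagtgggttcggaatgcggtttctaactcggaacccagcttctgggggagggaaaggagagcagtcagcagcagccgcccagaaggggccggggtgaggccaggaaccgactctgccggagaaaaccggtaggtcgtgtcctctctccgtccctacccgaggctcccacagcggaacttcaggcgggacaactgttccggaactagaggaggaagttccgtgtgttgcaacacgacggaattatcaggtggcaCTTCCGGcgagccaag
Ddx24: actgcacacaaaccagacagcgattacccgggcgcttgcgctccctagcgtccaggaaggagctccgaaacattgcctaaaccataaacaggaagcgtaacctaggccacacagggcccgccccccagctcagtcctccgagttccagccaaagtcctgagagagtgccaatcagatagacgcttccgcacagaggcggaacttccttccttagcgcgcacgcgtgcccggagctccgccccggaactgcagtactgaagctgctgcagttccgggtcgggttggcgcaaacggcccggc
Ddx60: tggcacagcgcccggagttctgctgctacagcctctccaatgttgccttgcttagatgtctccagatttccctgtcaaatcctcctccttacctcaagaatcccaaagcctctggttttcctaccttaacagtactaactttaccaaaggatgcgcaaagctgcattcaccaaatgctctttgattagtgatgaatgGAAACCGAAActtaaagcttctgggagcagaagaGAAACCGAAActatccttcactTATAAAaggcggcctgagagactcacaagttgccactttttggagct
Ddx4: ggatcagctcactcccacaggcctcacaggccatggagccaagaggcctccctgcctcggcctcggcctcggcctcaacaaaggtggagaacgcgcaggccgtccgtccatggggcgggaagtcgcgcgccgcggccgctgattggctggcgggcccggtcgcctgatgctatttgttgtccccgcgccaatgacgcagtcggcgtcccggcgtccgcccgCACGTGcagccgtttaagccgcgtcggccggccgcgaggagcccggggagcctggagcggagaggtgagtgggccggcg

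These windows are, in GRCm38.p6, chr2:130274162-130274461 on the plus strand (Nop56), chr5:88554212-88554511 plus (Utp3), chr13:112927430-112927729 plus (Dhx29), chr17:35879528-35879827 plus (Dhx16), chr1:186749309-186749608 minus (Rrp15), chr12:103425798-103426097 minus (Ddx24), chr8:61927837-61928136 plus (Ddx60) and chr13:112652261-112652560 minus (Ddx4). The window of Utp3 holds the ETS letters at 2 places, 224 and 138 bases before the start, and that of Dhx16 at 14 bases before it. Rrp15 carries them in reverse, 34 bases after the start. Ddx60 holds the interferon element core at 53 and 19 bases before the start and a TATA box 3 bases after it. Ddx4 holds the E-box 29 bases before the start. No searched motif lies in the windows of Nop56, Dhx29 and Ddx24. Over all 88 windows of the members, the ETS letters occurred in 31 (35.2%), against 20.1% of 9279 windows of autosomal genes in the table and 9.004% of all 31396 autosomal windows. The E-box occurred in 11.4% of the members' windows (10.01% of the table's, 7.14% of all) and the GATA motif in 5.68% (6.13% and 11.2%). The TATA box occurred in 9.09% (6.77% and 13.6%). The interferon element core, which was added after the values of Ddx60 were seen, occurred in 4.55% (3.09% and 3.46%). The members' windows had a median GC content of 59.0%, the table's 61.3%. A match is a description of letters, and no binding was measured. Of the 15 members 2-fold higher in tg, 4 held the ETS letters (Utp3, Dhx16, Ddx55, Nol7), and of the 8 lower, 1 did (Rrp15). Only the 72 members with a window could be searched, and how many of the 15 and the 8 had one was not counted. These numbers are therefore not read as a link between the letters and the direction. Members within 2-fold that hold the ETS letters also lay on both sides of equality, such as Nop2 above it and Ddx17 below it.

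Relative to the totals used for scaling, the members as a group differed little between the libraries. By the deposited log2 values, 15 of 86 were higher in tg by 2-fold or more, and 8 were lower by as much. Over all autosomal features 16.5% were 2-fold higher and 15.6% lower, so the 15 (17.4%) are near that background and the 8 (9.3%) are below it. The median log2 ratio was 0.25, against 0.05 for all autosomal features, and 53 members lay above 0. The spread among members (SD 0.94 on the log2 scale) was smaller than among all autosomal features (1.26). Summed over the members, the reads were 2674 (WT) and 1419 (tg), a ratio of 1.00 per total (95% counting interval 0.940 to 1.07). For all autosomal features with recovered reads the ratio was 0.983. The totals are near the reads summed over the genes themselves, so a gain or loss of H3K9ac common to most genes would not show. With 1 library per genotype no difference has a replicate check, and the intervals cover counting error only. The interval of a member's own ratio lay above equality for 9 members and below it for 7, where 12.8% and 12.7% of autosomal features with recovered reads did so. The 9 were Nop56, Utp3, Utp15, Nop2, Exosc4, Exosc9, Dhx16, Ddx46 and Dhx29. The 7 were Polr1d, Ddx24, Ddx17, Ddx23, Ddx60, Dhx58 and Ddx4. Of these 16 members, 9 are helicases. The factors of ribosome assembly and the exosome (55 members) had a median of 0.42, their reads together giving a ratio of 1.18 (1.08 to 1.29). The 42 helicases of all roles had a median of 0.07 and together 0.879 (0.807 to 0.957), but 0.964 (0.883 to 1.052) without Ddx4, so that the interval then includes 1. These groups share 14 genes, and the difference between the groups was not tested.

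**Figure D1:**
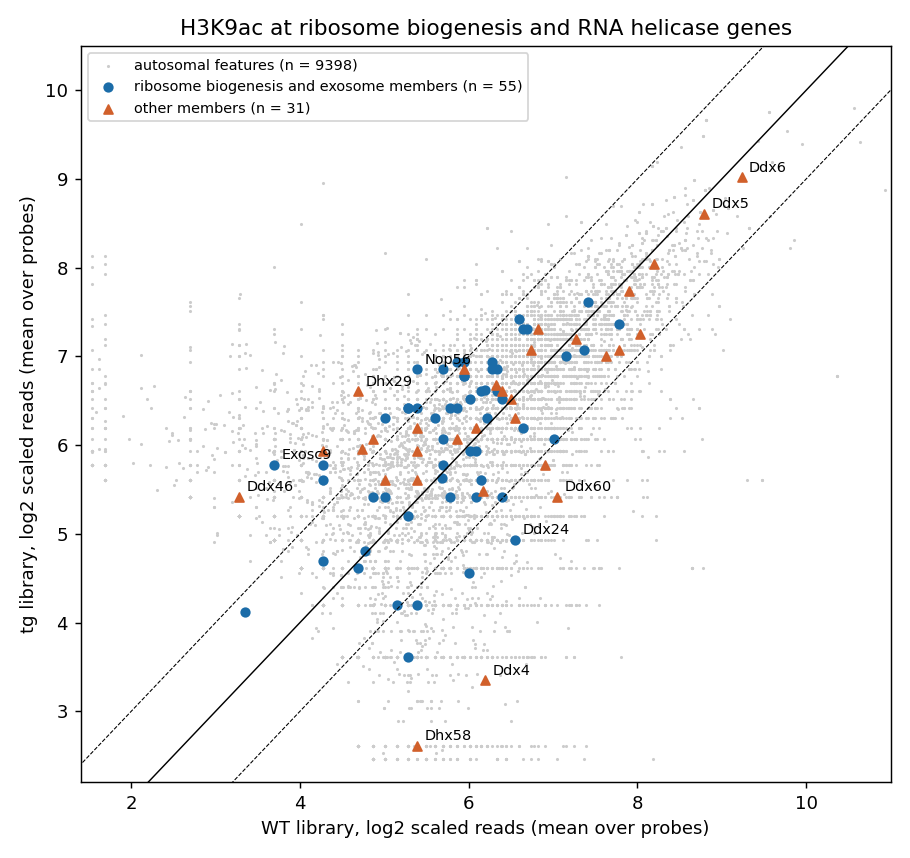
H3K9ac level of each gene in the WT library (x axis) and the tg library (y axis), as log2 scaled reads averaged over probes. Grey points are the 9398 autosomal features, blue circles 55 ribosome biogenesis and exosome members and orange triangles the other 31 members. The solid line marks equality and the dashed lines 2-fold, beyond which 15 members lie above and 8 below.

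**Figure D2:**
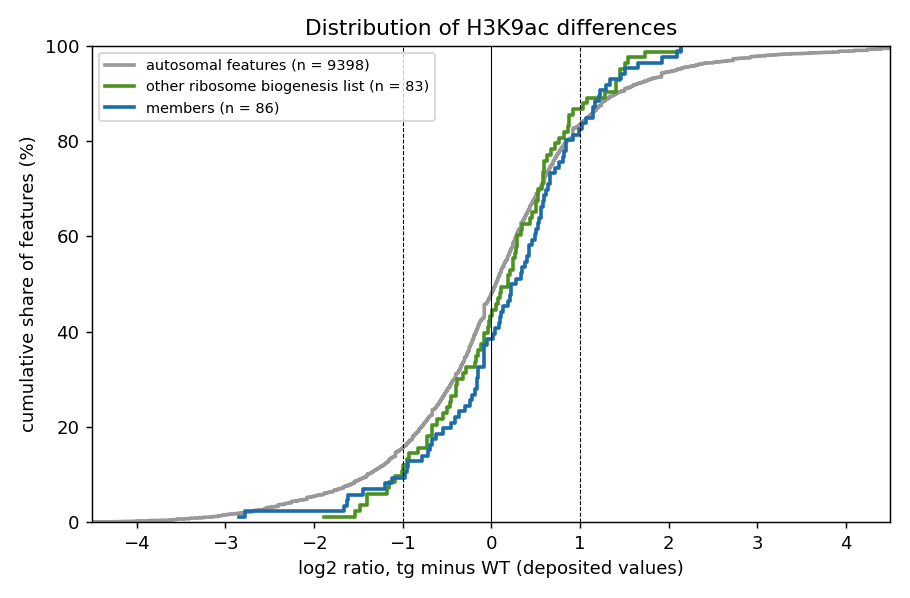
Cumulative share of genes (y axis, percent) by log2 ratio of tg to WT (x axis) for the 86 members, 83 other ribosome biogenesis genes and 9398 autosomal features. The members' median is 0.25 and that of the autosomal features 0.05. Dashed lines mark 2-fold.

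Transcription of ribosomal RNA was represented by 3 subunits. Polr1d, a small subunit that RNA polymerases I and III share (chromosome 5, 147077050 to 147111361, ENSMUSG00000029642), had 47 WT reads and 8 tg reads. This was 3.11-fold lower in tg (1.45 to 7.61), and its probes held 11 and 36 reads in WT against 3 and 5 in tg. Polr1a, the largest subunit of polymerase I, had 22 and 16 reads (ratio 1.38, 0.675 to 2.74). Its partner Polr1c, also shared with polymerase III, had 31 and 26 (1.59, 0.905 to 2.76). Equality lies inside the intervals of Polr1a and Polr1c. Both have the same values as a neighbouring gene, Ptcd3 and Yipf3 respectively, so the reads cannot be assigned to 1 of the genes.

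The box C/D snoRNP, which guides methylation of ribosomal RNA, is built on NOP56, NOP58 and the methyltransferase fibrillarin. Nop56 (chromosome 2, 130274430 to 130279313, ENSMUSG00000027405) held 13 WT reads and 19 tg reads, 2.76-fold higher per total (1.30 to 6.09). Its paralogue Nop58 held 51 and 22 reads, a ratio of 0.816 (0.471 to 1.37). These partners of 1 complex thus pointed in different directions, and only the interval of Nop56 excludes equality. The fibrillarin gene Fbl had 31 and 15 reads over 3 probes (0.915, 0.459 to 1.75). Nop10, of the H/ACA snoRNPs that guide pseudouridylation, had 9 and 7 (1.47, 0.466 to 4.44). Ncl, which encodes the abundant nucleolar protein nucleolin, had 26 and 7 reads, a log2 ratio of -0.97 just inside the 2-fold limit.

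The small subunit processome, the large complex on the precursor of the 18S RNA, was represented by 20 genes. Of these, 3 passed 2-fold upwards in tg (15%) and 1 downwards (5%), against 16.5% and 15.6% of autosomal features. Log2 ratios above 0 were found for 12 (median 0.39, or 0.64 for the 9 at or above the median level of all genes). Summed reads were 408 in WT and 264 in tg, a ratio of 1.22 (1.04 to 1.43). Utp3, a processome component (chromosome 5, 88554483 to 88556083), had 16 and 19 reads, 2.25-fold higher (1.09 to 4.67). Utp6 (10 and 13 reads; 2.46, 0.996 to 6.26) and Rrp9, a protein of the U3 snoRNP (12 and 14 reads; 2.21, 0.947 to 5.22), reached 2-fold with intervals that include 1. Utp15, which takes part early in processome assembly, had 30 and 28 reads (1.77, 1.02 to 3.06). It shares its values with Ankra2. On the other side was Rrp7a, with 13 and 3 reads (2.29-fold lower, 0.630 to 12.5). Utp18, among the processome members with the most reads, had 68 and 27 reads and the same values as Mbtd1 (0.751, 0.462 to 1.19).

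Large subunit assembly was represented by 18 genes, of which 2 were 2-fold higher and 2 lower (11.1% each, against 16.5% and 15.6% of autosomal features). The median was 0.23 and the summed ratio 1.11 (0.947 to 1.30). The helicase gene Ddx24 (chromosome 12, 103407976 to 103425867, ENSMUSG00000041645) held 29 WT reads and 5 tg reads, 3.07-fold lower (1.17 to 10.1). Rrp15, a factor of precursors of the large subunit, had 12 and 2 reads (3.17-fold lower, 0.706 to 29.2). These lower values stood beside higher ones for Ddx55 (6 and 8 reads; 2.52, 0.767 to 8.82) and Rrp1b (12 and 14 reads; 2.21, 0.947 to 5.22). Nop2, a methyltransferase of the large ribosomal RNA, had 19 and 20 reads. Its log2 ratio of 0.99 stops short of 2-fold, while its interval lies above 1 (1.01 to 3.94). Gnl3, which encodes the stem cell GTPase nucleostemin, had 53 and 32 reads (1.14, 0.713 to 1.804), and Ddx51 had 44 and 21 (0.903, 0.510 to 1.55). Ddx51 has the same values as its neighbour Noc4l, itself a ribosome assembly gene, and Gnl3 those of the chromatin gene Pbrm1. Rrp1 had 20 and 10 reads (0.946, 0.395 to 2.12). The neighbouring paralogues Ddx21 and Ddx50, nucleolar helicases on chromosome 10, had 40 and 11 reads (0.520, 0.241 to 1.03) and 19 and 18 reads (1.79, 0.887 to 3.61). They lie on opposite sides of equality, and both intervals include 1.

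The RNA exosome had the highest share of 2-fold members among the groups of more than 5 genes. Of its 9 subunit genes with a probe, 4 were higher in tg by 2-fold or more and 0 lower (44.4% against 16.5% of autosomal features), and 8 of the 9 lay above 0. The median log2 ratio was 0.52, and the 175 WT reads and 140 tg reads gave a summed ratio of 1.51 (1.20 to 1.90). Exosc9, a ring subunit (chromosome 3, 36552606 to 36565729, ENSMUSG00000027714), had 4 WT reads and 9 tg reads (4.26-fold higher, 1.19 to 18.9). The ring subunit Exosc4 had 18 and 20 reads (2.10, 1.06 to 4.21), with the same values as its neighbour Oplah. Exosc5, also of the ring, had 6 and 9 reads (2.84, 0.902 to 9.69), and Exosc2, of the cap that binds RNA, 13 and 14 (2.04, 0.888 to 4.71). The nuclease Exosc10 (25 and 19 reads) had a ratio of 1.44 (0.748 to 2.72), and the cap subunit Exosc3 (55 and 38 reads over 2 probes) 1.31 (0.841 to 2.01). Exosc8 (20 and 15) had a ratio of 1.42 (0.676 to 2.91). Exosc7 (23 and 13), with the same values as its neighbour Zdhhc3, lay nearest to equality at 1.07. The exception was Exosc1, the remaining cap subunit, with 11 WT reads and 3 tg reads (0.516, 0.0924 to 1.95). The 4 subunits beyond 2-fold rested on 4 to 18 reads in WT, and for 2 of them the interval includes 1.

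**Figure D3:**
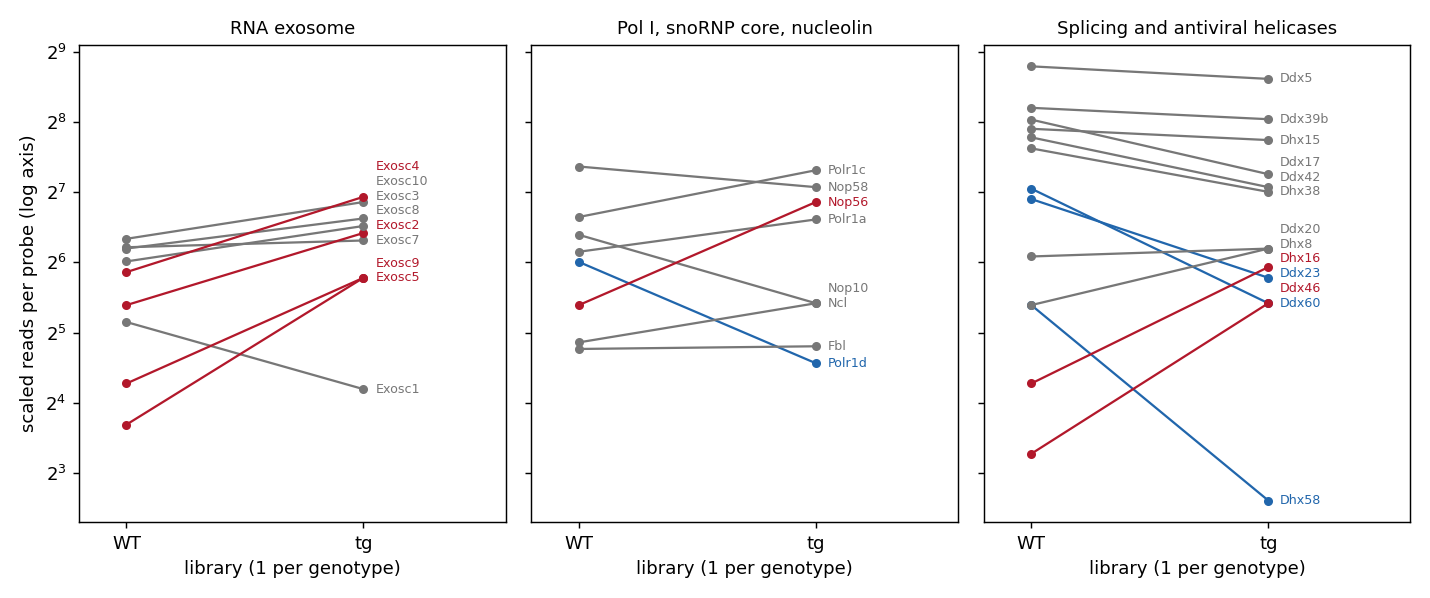
Scaled reads per probe (y axis, log scale) in the WT and tg library for members of 5 role groups, 1 line per gene. Red lines are genes at least 2-fold higher in tg, blue lines at least 2-fold lower and grey lines between. In the exosome panel 8 of 9 lines go up, while Ddx60 and Dhx58, filed as antiviral helicases, go down.

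The 11 helicases of splicing had a spread of log2 ratios (SD 1.04) below that of all autosomal features (1.26). There were 2 genes beyond 2-fold above WT (18.2%) and 1 below (9.09%), against 16.5% and 15.6% of autosomal features. Log2 ratios under 0 were found for 7 (median -0.16, or -0.40 for the 8 at or above the median level). The summed ratio was 0.831 (0.715 to 0.963). Ddx46 and Dhx16, which drive steps in spliceosome assembly and activation, were higher in tg on few reads: Ddx46 had 3 and 7 (4.41, 1.01 to 26.4), Dhx16 6 and 10 (3.15, 1.04 to 10.6). Ddx23, which helps to load the U5 and U4/U6 particles onto the splice site, had 37 and 9 reads, 2.17-fold lower (1.03 to 5.12). The paralogues Ddx5 and Ddx17, helicases with roles in splicing and as transcription coactivators, were covered better than most members. Ddx5 had 137 and 64 reads (0.884, 0.646 to 1.20). Ddx17 had 81 and 25, a ratio of 0.584 (0.357 to 0.924), so that its interval excludes equality although the difference is under 2-fold. Ddx39b, of splicing and mRNA export, had 91 and 43 reads (0.894, 0.607 to 1.30), and Dhx15 74 and 35 (0.895, 0.581 to 1.35). The narrow intervals of Ddx5, Ddx39b and Dhx15 exclude a 2-fold difference by counting error in either direction. Ddx5 has the same values as its neighbour Ccdc45, and Ddx39b those of SNORD83, so these values describe the pairs.

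Among 9 helicases of mRNA export, translation and decay, 2 were 2-fold higher (22.2%) and 0 were lower, against 16.5% and 15.6% of autosomal features. The median was 0.33 and the summed ratio 1.06 (0.8996 to 1.26). Dhx29, which helps ribosomes scan structured mRNA (chromosome 13, 112927730 to 112969431, ENSMUSG00000042426), had 8 WT reads and 16 tg reads, 3.78-fold higher (1.53 to 10.2). Ddx19b, of the mRNA export step at the nuclear pore, passed 2-fold on the deposited scale (log2 ratio 1.23), with 21 reads in each library (summed ratio 1.89, 0.983 to 3.64). Its close paralogue Ddx19a lies beside it, and reads of such copies may be split between them. Ddx6, the decapping activator of cytoplasmic processing bodies, had the most reads of all members, 187 and 85. Its ratio of 0.860 (0.657 to 1.12) again excludes 2-fold by counting error. Ddx39 had 35 and 26 reads (1.41, 0.812 to 2.40), and Dhx36, which unwinds guanine quadruplexes, was close to equality at 28 and 15 (1.01, 0.503 to 1.96).

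The 2 members filed under innate sensing and antiviral defence were lower in tg. Each member was filed under 1 role only, so any helicase with a further antiviral role is not counted here. Dhx58, a RIG-I-like receptor of viral RNA (chromosome 11, 100694884 to 100704271, ENSMUSG00000017830), had 13 WT reads and 1 tg reads, a 6.87-fold lower level with a wide interval (1.03 to 292). Ddx60, an interferon-induced helicase (chromosome 8, 61928087 to 62037701, ENSMUSG00000037921), had 41 and 7 reads, 3.10-fold lower (1.38 to 8.18). Its promoter, shown above, holds the interferon element letters at 2 places. In the same libraries, 16 of 24 interferon-stimulated genes with a probe (30 listed, Dhx58 and Ddx60 not among them) were 2-fold lower in tg and 0 were higher. The summed level of the 23 with recovered reads was 3372 scaled reads in WT and 1490 in tg, with Gbp3 at 0 reads in tg. The part of a shared interferon state or of cell composition in the difference of Dhx58 and Ddx60 was not tested.

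Mitochondrial ribosome assembly was represented by Ddx28 (19 reads in each library; 1.89, 0.948 to 3.78) and Dhx30 (58 and 38; 1.24, 0.801 to 1.90). Ddx28 has the same values as its neighbour Dus2l. Among the remaining 7 members, Nol7 had 9 and 11 reads (2.31, 0.871 to 6.31). Rrp8, a nucleolar methyltransferase-like protein, had 48 and 24 reads (0.946, 0.554 to 1.57), and Gnl1 had 26 and 16 (1.16, 0.583 to 2.25). Both of these intervals include 1, and that of Gnl1 also includes a 2-fold difference. Rrp8 and Gnl1 share their values with Ilk and Prr3 respectively.

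The lowest ratio of all members belonged to Ddx4, the Vasa helicase of germ cells (chromosome 13, 112598333 to 112652310, ENSMUSG00000021758). It is also the member with the most probes, 6. In WT they held 13, 13, 21, 21, 23 and 80 reads, in tg 0, 1, 1, 2, 3 and 4. Each WT probe thus exceeded every tg probe, in reads and in scaled reads. The sum of 171 WT reads and 11 tg reads is an 8.22-fold lower level in tg (4.48 to 16.8), and the deposited log2 ratio was -2.85. The neighbouring gene Slc38a9 (112660766 to 112738743) had 26 WT reads and 24 tg reads (1.75, 0.960 to 3.16), and Dhx29, on the same chromosome, was higher in tg. Left without Ddx4, the other 6 members of its group had a summed ratio of 1.12, against 0.569 with it.

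**Figure D4:**
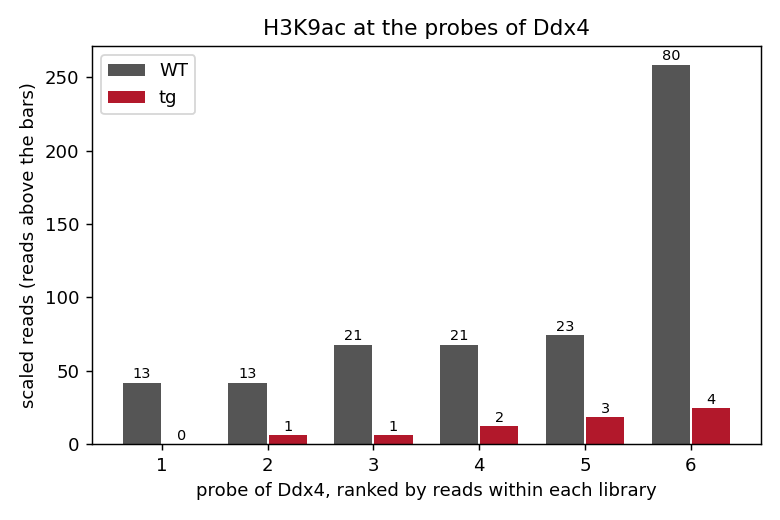
Scaled reads (y axis) at the 6 probes of Ddx4, ranked by reads within each library (x axis), with the read numbers above the bars. Probes of the same rank need not be the same interval. The WT bars rest on 13 to 80 reads and the tg bars on 0 to 4.

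**Figure D5:**
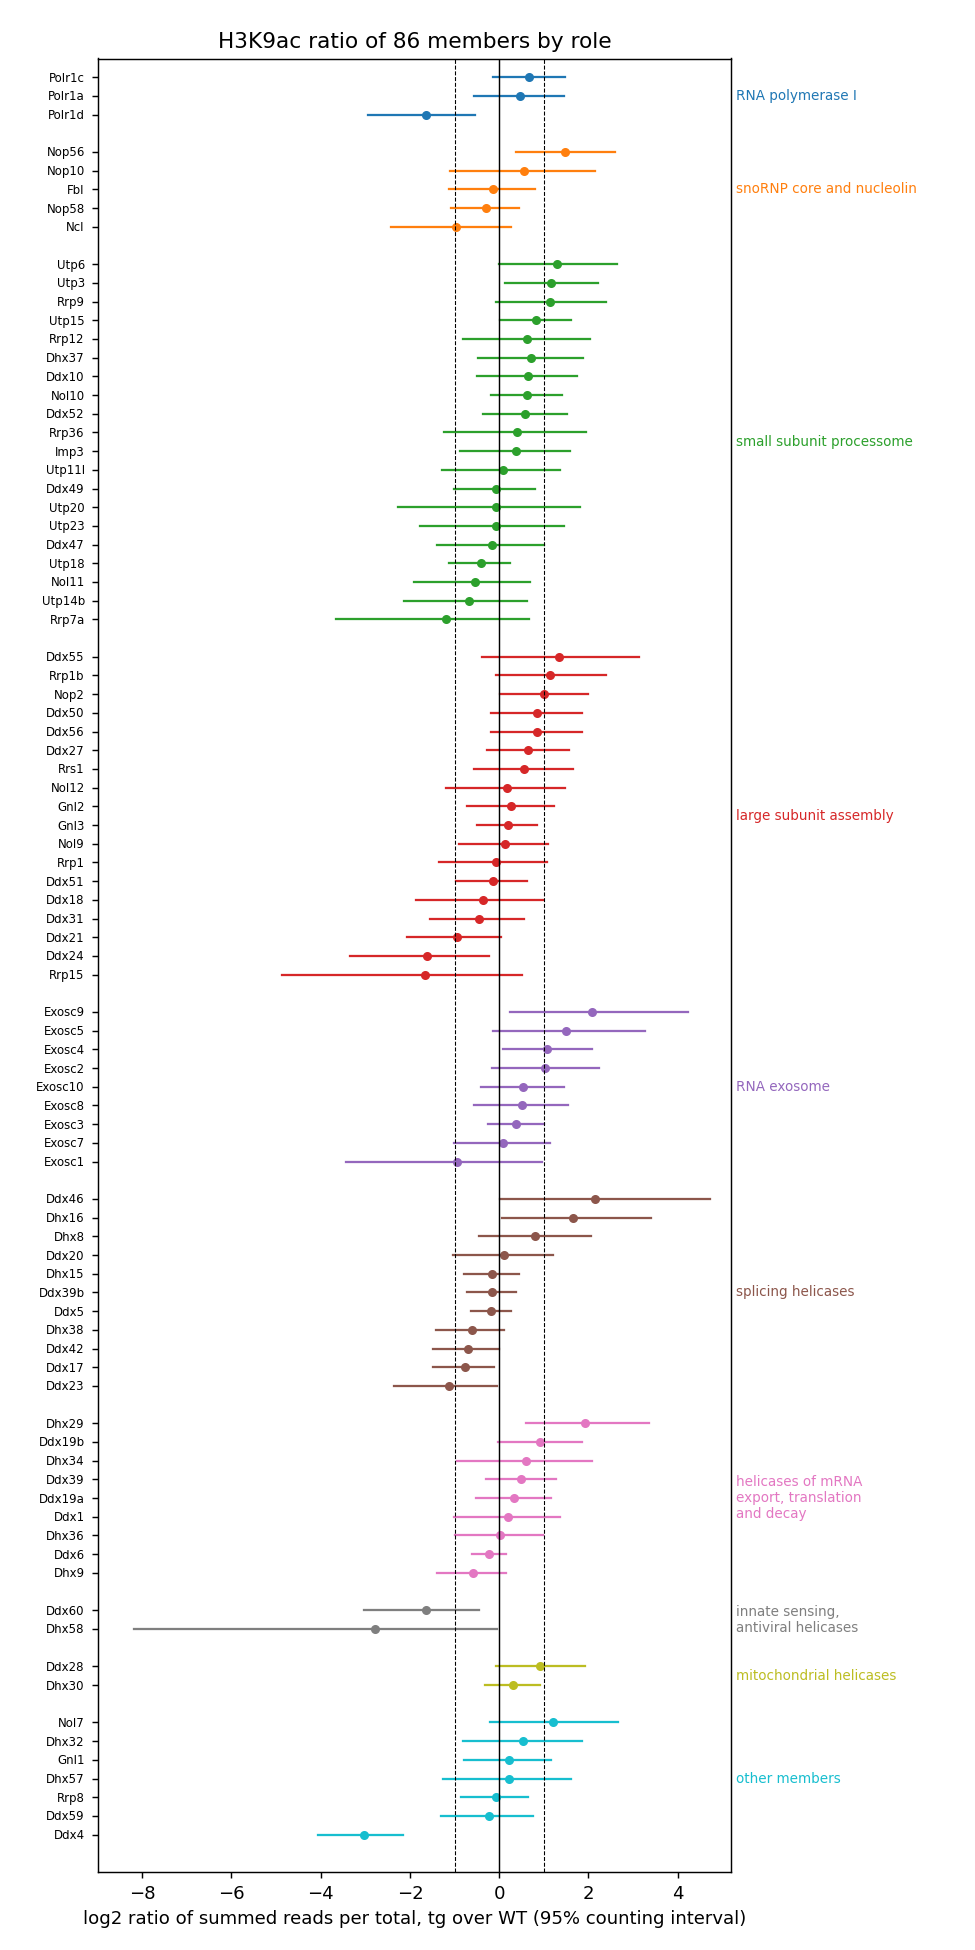
Log2 ratio of summed reads per total, tg over WT (x axis), for each of the 86 members, grouped by role and coloured by group. Lines are 95% counting intervals, the solid vertical line marks equality and the dashed lines 2-fold. Most intervals cross 0, and 9 lie above it and 7 below.

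Other genes of ribosome assembly, listed by name outside the rule, gave a similar picture. Of 95 listed, 83 had a probe, of which 11 were 2-fold higher in tg (13.3%) and 9 lower (10.8%). Over all autosomal features these shares were 16.5% and 15.6%. The median of the 83 was 0.18, against 0.05 for all autosomal features, or 0.019 for the 44 at or above the median level. The summed ratio of the 83 was 1.08 (1.01 to 1.17). The list includes the X-linked genes Tsr2, one of the 9 lower, and Dkc1. The 81 autosomal ones had 11 genes beyond 2-fold upwards (13.6%) and 8 downwards (9.88%). Their median was 0.18 and their summed ratio 1.09 (1.01 to 1.17). Among those at or above the median level of all genes, the highest ratios were those of Mrto4, a large subunit factor (26 and 29 reads; 2.11, 1.20 to 3.73), Wdr12 of the PES1-BOP1 complex (20 reads in each library; 1.89, 0.966 to 3.70) and the kinase Riok3 (36 and 35; 1.84, 1.12 to 3.01). Mrto4 has the same values as its neighbour C230096C10Rik, and Wdr12 those of Carf. At the other end of the ratios were the exonuclease gene Xrn2 with 49 WT reads and 7 tg reads (3.70-fold lower, 1.67 to 9.68), the processome gene Wdr75 with 37 and 7 (2.79-fold, 1.23 to 7.43) and Ltv1, of late small subunit maturation, with 30 and 7 (2.27-fold, 0.975 to 6.11). Ratios beyond 2-fold in both directions were found among the listed genes as among the members, at shares near or below those of all autosomal features. These ratios are therefore not read as a result about the small subunit or large subunit pathways.

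Of the 86 members, 18 had the same values in both libraries as a gene within 100000 bases. Where the same reads count for a pair of genes, the value describes the pair. Members with at least the median level of all genes (53) had 6 genes 2-fold higher (11.3%) and 3 lower (5.66%). Among all autosomal features at that level these shares were 10.3% and 10.7%. The other 14 of the 23 members beyond 2-fold lay below the median level per probe. Autosomal features in general also passed 2-fold more often when those below that level were included (16.5% higher and 15.6% lower). The 14 are therefore not read as particular to the members. Ddx4 is among these 14, although its summed reads in WT were among the most of all members.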

How the data were processed

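H3K9ac was measured in 2 libraries, 1 per genotype. The submitters' processing notes list CASAVA 1.8.2, FastQC, BWA and SAMtools, with mm10 and GRCm38 as builds. Per the labels' protocols, chromatin was fixed in 1% formaldehyde and sonicated during 20 min. The authors deposited, per gene, the count of probes and the mean and SD of log2 values over the probes, per the file headers. The sources used here do not give duplicate removal, probe placement or the program that made the table.

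For the 7423 genes with 1 probe, 100% of the deposited values came out, in either library, as whole multiples of 1 read (3.23 scaled reads in WT, 6.11 in tg, within 0.01 of a read), with 0 reads entered as 0.9. Scaled reads are thus reads per 1000000 of the totals given above. Reads per probe were recovered where exactly 1 set of whole numbers matched the mean and SD (9492 of 9498 genes with up to 4 probes, and Ddx4 with 6). Genes with under 9 reads over both libraries do not appear among the 1-probe genes. The recovery was tested on simulated data.

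The difference was the tg minus the WT log2 value. Folds used reads summed over probes per total, with exact conditional binomial (Clopper-Pearson) 95% intervals, which cover counting error only, as reads with no molecular identifiers cannot be counted as molecules. With 1 library per genotype there is no test: 2-fold is a rule of size. Named were all members beyond 2-fold, the 2 with the highest level in each of 10 role groups, the 3 nearest to equality at or above the median level (62.1 scaled reads), and 3 other ribosome biogenesis genes at either end. Any other member named was picked with its values in view. The members and lists were chosen with earlier results of these data known. Python 3.11.15, scipy 1.17.1 and matplotlib 3.10.9 were used. Levels are per probe of unstated width, so they are not compared between genes per length.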

Additional observations from a re-analysis of the deposited data

How the results depend on the processing

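No paired analysis was possible because each genotype had 1 H3K9ac library, which also leaves no library to leave out. The settings compared were reads summed over probes, filters on level and reads, other scalings (these move the median of all genes by at most 0.05), another entry for 0 reads, shared values counted once and 1-probe genes only. The numbers of members 2-fold higher and lower (15 and 8) were 6 and 3 of the 53 at or above the median level (11.3% and 5.66%, against 10.3% and 10.7% of autosomal features there). The lower ones were 5 of the 72 with at least 20 reads (6.94%, against 14.6%). At 1.5-fold the higher and lower members were 28 and 16, at 3-fold 4 and 5. The shares of all autosomal features at these limits were not computed, so these counts are not read as a result about the members. The median log2 ratio of the snoRNP group (0.04) became -0.13 with summed reads, -0.29 at or above the median level, -0.13 with at least 20 reads and -0.0068 when centred on the median of all genes. That of polymerase I (0.46) was -0.39 with shared values counted once. At or above the median level, the medians were 0.64 for the processome, -0.40 for splicing helicases, -0.081 for the remaining members and 0.019 for the other biogenesis genes, which had 0.057 with at least 20 reads. Chosen after seeing the data, leaving out Ddx4 turned the summed ratio of the remaining members from 0.569 to 1.12 and that of all helicases from 0.879 to 0.964. The cause was not tested, except that the filters leave fewer genes. The other 126 values for groups moved within the limits set, which for counts was 1.5 times. For medians and summed ratios the limit came from the counting interval of the group's summed ratio, which is not an interval of the median. All 94 values for single genes stayed within their intervals, but these settings could hardly move them. Upper quartile scaling shifts a log2 ratio by 0.0025, and for 1-probe genes the deposited difference is the same ratio. Low read numbers limit single genes: the intervals of 16 of the 86 members exclude equality.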

Other observations

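Genes with names of this kind that the rule left out, by chromosome or by an older name, gave these values. Whether each has a role in ribosome biogenesis or as a helicase was not checked. The X-linked translation helicase gene Ddx3x had 53 WT reads and 15 tg reads (1.87-fold lower, 1.04 to 3.57), and Ddx26b, also on X, had 29 and 4 (3.83-fold lower, 1.35 to 15.01). The libraries differ in Y-linked reads, so the sex of the animals and the genotype cannot be told apart, at X-linked genes or at the autosomal members. Of the genes with an older name in the table, Cirh1a, the processome gene now called Utp4, had 38 and 9 reads (2.23-fold lower, 1.06 to 5.25), with the same values as Chtf8. Gltscr2, now Nop53, had 11 and 3 (1.94-fold lower, 0.512 to 10.8). The gene model 8430427H17Rik, now Nol4l, had 4 and 14 reads (6.62-fold higher, 2.08 to 27.6), above every member's ratio.

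The germ cell helicase gene Ddx4 had reads at each of its 6 probes in WT marrow and at 5 of them in tg. The table does not place the probes, and the IgG libraries were not analysed here, so these data do not show whether the reads lie at the promoter of Ddx4.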
